A study of Mus musculus with 12 samples.

Results

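The solute carriers are the large superfamily of membrane proteins that move sugars, amino acids, nucleosides, vitamins, metals, ions and organic acids across cell and organelle membranes. Those expressed in the mouse uterus were followed through the estrous cycle. Members were the protein-coding genes whose symbol has the solute carrier form (Slc, a family number, a letter and a member number) and whose mean over the 12 samples was at least 5 CPM (a gene's share of all counts assigned to genes, scaled to a fixed total). The selection used that overall level and no comparison of stages. Of 369 protein-coding genes with such a symbol, 334 had a count in at least 1 sample and 185 were members. Slc2a1, Slc16a3, Slc6a2, Slc22a3 and Slc8a1 were left out by the rule. The members nearest the limit were Slc36a1 at 5.07 CPM and Slc26a9 at 5.29 CPM, while Slc26a1 at 4.95 CPM and Slc37a4 at 4.91 CPM fell just short. Among the 185 were 4 genes with a matching symbol whose products are not carriers: Slc9a3r1, Slc9a3r2, Slc4a1ap and Slc7a6os.

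The samples were whole uteri of wild-type Swiss Webster females aged 8 to 12 weeks, an outbred stock, with 3 uteri at proestrus, 3 at estrus, 3 at metestrus and 3 at diestrus. No animal carried an allele or received an agent per the labels, and how an animal was staged was not given in the sources used here. Polyadenylated RNA was profiled by 3′ TagSeq, which reads 1 stretch near the end of each transcript, so CPM is not divided by transcript length. The libraries held 1652841 to 2200563 estimated counts, and the floor of 3 counts (the most that a 0 is compatible with) was worth 1.37 to 1.83 CPM. In the labels the replicates are numbered 1 to 3 in proestrus, 3 to 5 in estrus and diestrus, and 5 to 7 in metestrus.

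Carriers differ in what drives them. Sodium-coupled families such as SLC5 and SLC34 use the gradient built by the sodium pump to pull a substrate into the cell, facilitative families such as SLC29 and many SLC16 proteins let it follow its own gradient, and exchangers trade 1 substrate for another. SLC25 proteins sit in the inner mitochondrial membrane and SLC35 proteins mostly in the Golgi and endoplasmic reticulum. In the uterus, the epithelium uses carriers to set the ion, sugar and nutrient content of the luminal fluid, under the control of estradiol, which peaks around proestrus, and progesterone, which is higher in diestrus.

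As a group, the carriers changed over the cycle about as often as other genes did. An F test over the 4 stages (edgeR quasi-likelihood, adjusted p under 0.05 over all 12052 genes tested) called 46 of the 185 members, or 24.9%, against 23.2% of all genes tested. The median member spanned 0.649 log2 units between its highest and lowest stage, against 0.605 for all genes tested. Of the 46, 27 were highest in estrus, 8 in proestrus, 7 in diestrus and 4 in metestrus. In the background, 10.9% of all genes tested were called and highest in estrus, 5.33% in proestrus, 5.69% in diestrus and 1.3% in metestrus. Diestrus was the lowest stage for 23 of the 46, proestrus for 12, estrus for 7 and metestrus for 4. Of the 2793 called genes in the background, 946 were lowest in diestrus, 781 in proestrus, 861 in estrus and 205 in metestrus. Each library was left out in turn, giving 12 refits in which 34 to 54 members and 1910 to 3428 of all genes were called. Of the 46, 29 were called in all 12.

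A member can pass the expression limit through 1 stage alone, and such a gene had to differ. A stage mean under 5 CPM was found in 26 members, of which 15 were called, while 31 of the other 159 were called. The 26 included Slc26a9, Slc5a8, Slc37a1 and Slc27a2, which reached a mean of 5 CPM in estrus alone. Slc5a1 and Slc34a2 reached it in proestrus and estrus alone. The F-test calls and estrus peaks of all these genes are therefore no support for a difference, though they are in the counts above.

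**Figure D1:**
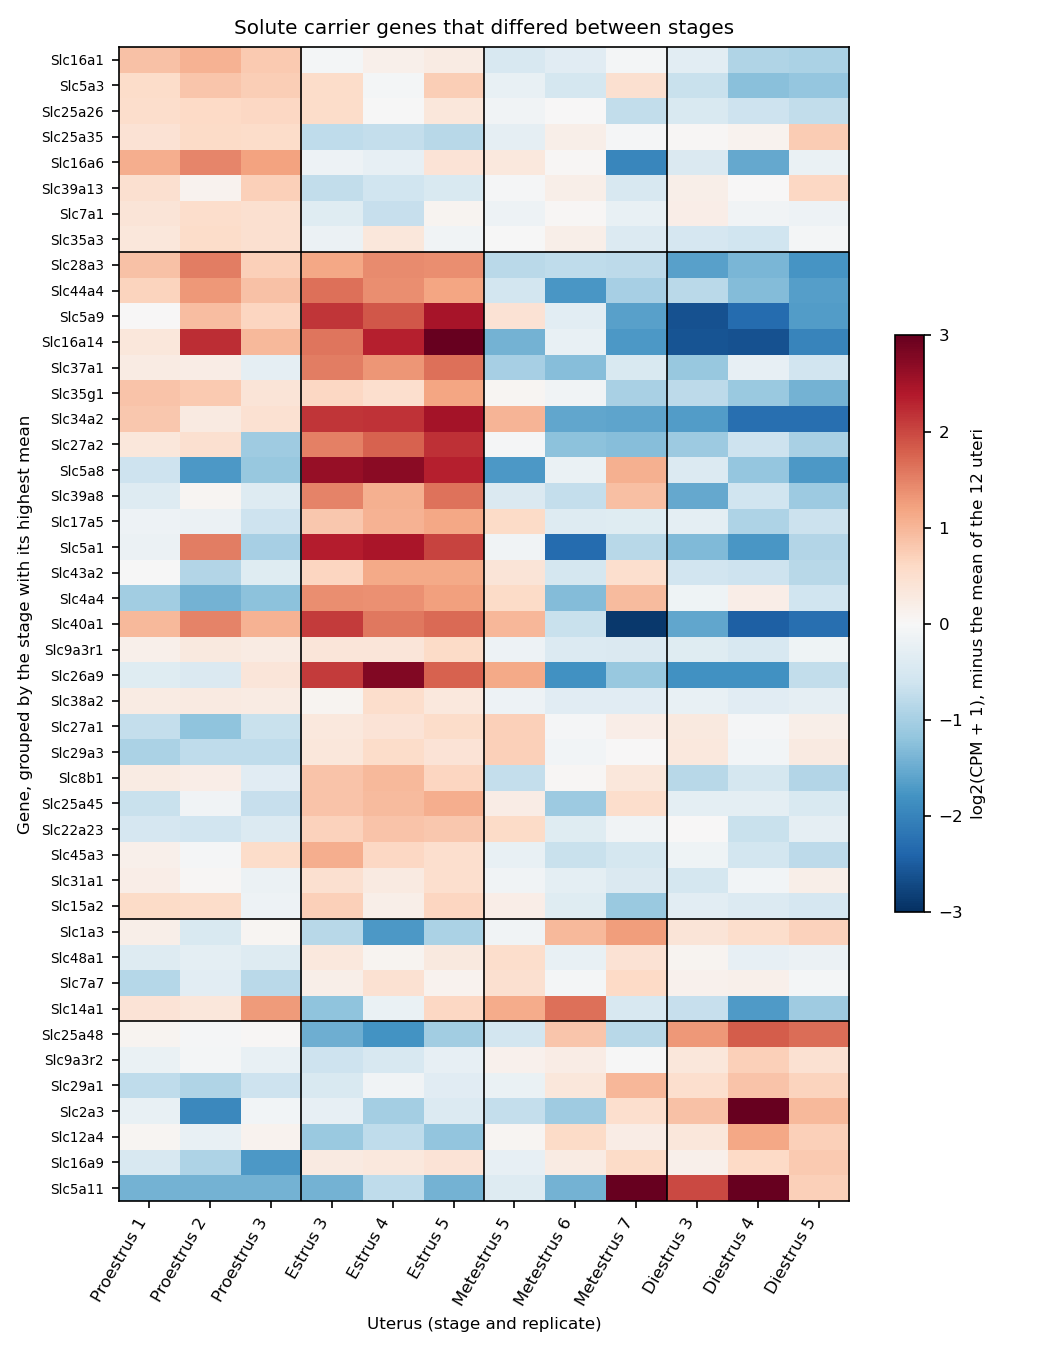
Heat map of members called by the F test, 1 row per gene and 1 column per uterus in order of stage, coloured by log2(CPM + 1) relative to the gene's own mean over the 12 samples. The block of genes highest in estrus is the largest of the 4, those highest in diestrus are set apart at the bottom, and colours are limited to 3 log2 units either way.

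The classes differed in how many of their members were called. Organic acid carriers had 5 of 7 called, sugar carriers 7 of 15, carriers of organic cations, anions and amines 3 of 7, and carriers of nucleosides, vitamins, choline and heme 5 of 14. Fatty acid, bile acid and steroid carriers had 2 of 6, small ion carriers 5 of 23, amino acid and peptide carriers 7 of 34, metal carriers 4 of 24, mitochondrial carriers 4 of 31, and nucleotide sugar and acetyl-CoA carriers 2 of 20. The genes that are not carriers had 2 of 4 called. These shares are descriptions with no test between classes, and several classes are small. They count members that passed the expression limit through their high stages. These include Slc5a8 among organic acids, and Slc5a1, Slc37a1 and Slc5a11 among sugars. Slc34a2 and Slc26a9 among small ions and Slc27a2 among fatty acids are others. The order of the classes can therefore follow in part from the selection. Over the 12 refits the count ran from 3 to 6 for organic acids (lowest without proestrus replicate 2), 4 to 9 for sugars (lowest without diestrus replicate 4), 1 to 3 for organic cations, anions and amines (lowest without estrus replicate 4) and 3 to 6 for mitochondrial carriers (lowest without estrus replicate 4 or 5). It ran from 3 to 8 for amino acids, 2 to 6 for metals, 1 to 4 for nucleotide sugars, 5 to 9 for small ions and 4 to 6 for nucleosides and vitamins, with the lowest count reached in 5 or more refits. It stayed at 2 for fatty acids and for the genes that are not carriers. With counts scaled from TPM, where 121 of the 185 members were tested, 1 sugar carrier and 1 amino acid carrier were called, 4 mitochondrial carriers, 3 each of organic acid, metal and nucleoside carriers, 2 small ion carriers, and 1 each of the nucleotide sugar, organic cation and fatty acid carriers.

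**Figure D2:**
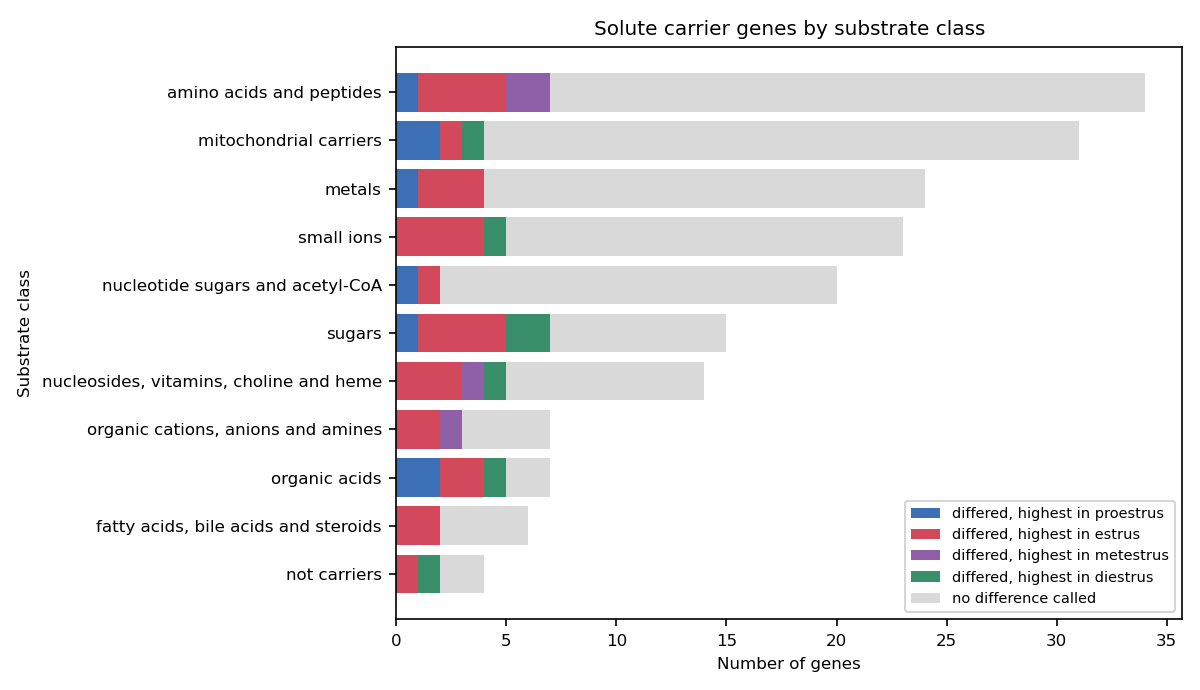
Members of each substrate class by outcome of the F test over 4 stages, with bars counting members called and coloured by the stage of their highest mean, and the rest not called. Organic acids (5 of 7) and sugars (7 of 15) have the fullest bars, and mitochondrial (4 of 31) and nucleotide sugar carriers (2 of 20) the emptiest.

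Because whole uteri were used, fewer cells of a type and less RNA per cell cannot be told apart in any value that follows. All 7 epithelial markers (Epcam, Cdh1, Krt8, Krt18, Krt19, Cldn3 and Cldn7) were called by the F test. Their summed level was 1231 to 1639 CPM in proestrus, 1308 to 1572 in estrus, 597 to 1035 in metestrus and 643 to 778 in diestrus, and their median log2 fold change in diestrus against estrus was -1.34. Cldn3 went the other way and was highest in diestrus. Smooth muscle had 3 of 6 markers called, stroma 2 of 6 and endothelium 0 of 5. Of markers for neighbouring tissue, Zp3 of the ovary and Upk3a of the urothelium were at 0 in all 12 samples, but others were detected. Star of the ovary was at 6.41 to 23.99 CPM and was not called (F test adjusted p = 0.527, edgeR), and Upk1b of the urothelium reached 5.66 CPM. Ovgp1 of the oviduct averaged 44.8 CPM in estrus against 14.3 to 17.7 in the other stages and was called (adjusted p = 0.0344). The other oviduct markers, Foxj1 and Dnah5, were too low to be tested and did not peak in estrus. Foxj1 averaged 0.412 CPM in estrus and 1.04 in proestrus, and Dnah5 0.153 CPM in estrus and 1.99 in metestrus. The part of neighbouring tissue in the estrus peaks was not tested. The part of epithelial content in the results for proestrus and estrus was not tested.

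Slc28a3, Slc44a4, Slc5a9, Slc16a14, Slc16a1 and Slc25a48 had the smallest F-test p-values of the members. Slc28a3 encodes a concentrative nucleoside transporter that pulls nucleosides into the cell with sodium or protons. Its level was 27.2, 43.5 and 24.4 CPM in proestrus, 33.6, 40.5 and 39.8 in estrus, 7.86, 8.06 and 7.92 in metestrus, and 3.99, 4.995 and 3.53 in diestrus. All 6 proestrus and estrus uteri lay above all 6 metestrus and diestrus uteri, and every diestrus value lay below every metestrus value. The log2 fold change of diestrus against estrus was -3.18 ± 0.28 (SE, adjusted p = 1.21e-05, edgeR), and that of proestrus against diestrus was 2.92 ± 0.28 (adjusted p = 6.92e-05).

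Slc44a4, a choline transporter-like protein of epithelia, had the same division between stages. It measured 37.7, 59.3 and 43.6 CPM in proestrus, 75.5, 62.9 and 54.5 in estrus, 15.6, 6.31 and 11.3 in metestrus, and 12.96, 8.90 and 6.79 in diestrus. The proestrus and estrus samples overlapped, and both stages lay above all later samples. The log2 fold change was -2.50 ± 0.29 in metestrus against estrus (adjusted p = 0.000341, edgeR) and -2.73 ± 0.29 in diestrus against estrus (adjusted p = 5.2e-05).

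Slc5a9, a sodium-coupled carrier of mannose and other sugars, was concentrated in estrus. Its values were 11.4, 22.1 and 18.3 CPM in proestrus, 53.2, 43.5 and 67.3 in estrus, 15.6, 8.84 and 2.98 in metestrus, and 0.997, 1.48 and 2.83 in diestrus. No estrus sample overlapped with any other stage, and 2 of the 3 diestrus samples held no more than 3 counts. It rose from proestrus to estrus by 1.66 ± 0.36 on the log2 scale (adjusted p = 0.00748, edgeR) and its log2 fold change in diestrus against estrus was -4.93 ± 0.50 (adjusted p = 3.57e-05).

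Slc16a14, a monocarboxylate transporter family member whose substrate is not established, had the widest span of the 6. It stood at 18.3, 69.5 and 28.4 CPM in proestrus, 45.2, 75.5 and 122.7 in estrus, 4.67, 12.0 and 3.58 in metestrus, and 1.496, 1.48 and 2.83 in diestrus. Replicates within proestrus and within estrus differed by more than 2-fold, and those 2 stages overlapped. Even so, all 6 lay above all metestrus and diestrus samples, and the log2 fold change of diestrus against estrus was -5.38 ± 0.65 (adjusted p = 0.000114, edgeR).

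Slc16a1, which encodes MCT1, a proton-coupled carrier of lactate, pyruvate and ketone bodies, peaked earlier. It was 69.0, 77.6 and 65.0 CPM in proestrus, 35.9, 41.8 and 44.4 in estrus, 26.5, 29.04 and 35.8 in metestrus, and 29.4, 19.3 and 18.7 in diestrus. All proestrus uteri were above all others, and the later stages came down in small steps that partly overlapped. The log2 fold change was -0.79 ± 0.18 in estrus against proestrus (adjusted p = 0.0105, edgeR) and 1.64 ± 0.19 in proestrus against diestrus (adjusted p = 0.000245).

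Slc25a48, an inner mitochondrial membrane carrier linked to choline import, ran opposite to the others. Its values were 48.5, 44.2 and 46.6 CPM in proestrus, 15.9, 12.4 and 21.6 in estrus, 30.6, 81.4 and 25.1 in metestrus, and 113, 164 and 147 in diestrus. Each diestrus sample exceeded every sample of the other stages, each estrus sample lay below them all, and metestrus replicate 6 was well above the other metestrus samples. Diestrus exceeded estrus by 3.06 ± 0.36 log2 units (adjusted p = 9.91e-05, edgeR), and proestrus lay below diestrus (log2 fold change -1.60 ± 0.33, adjusted p = 0.0078). These calls were kept in all 12 refits.

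**Figure D3:**
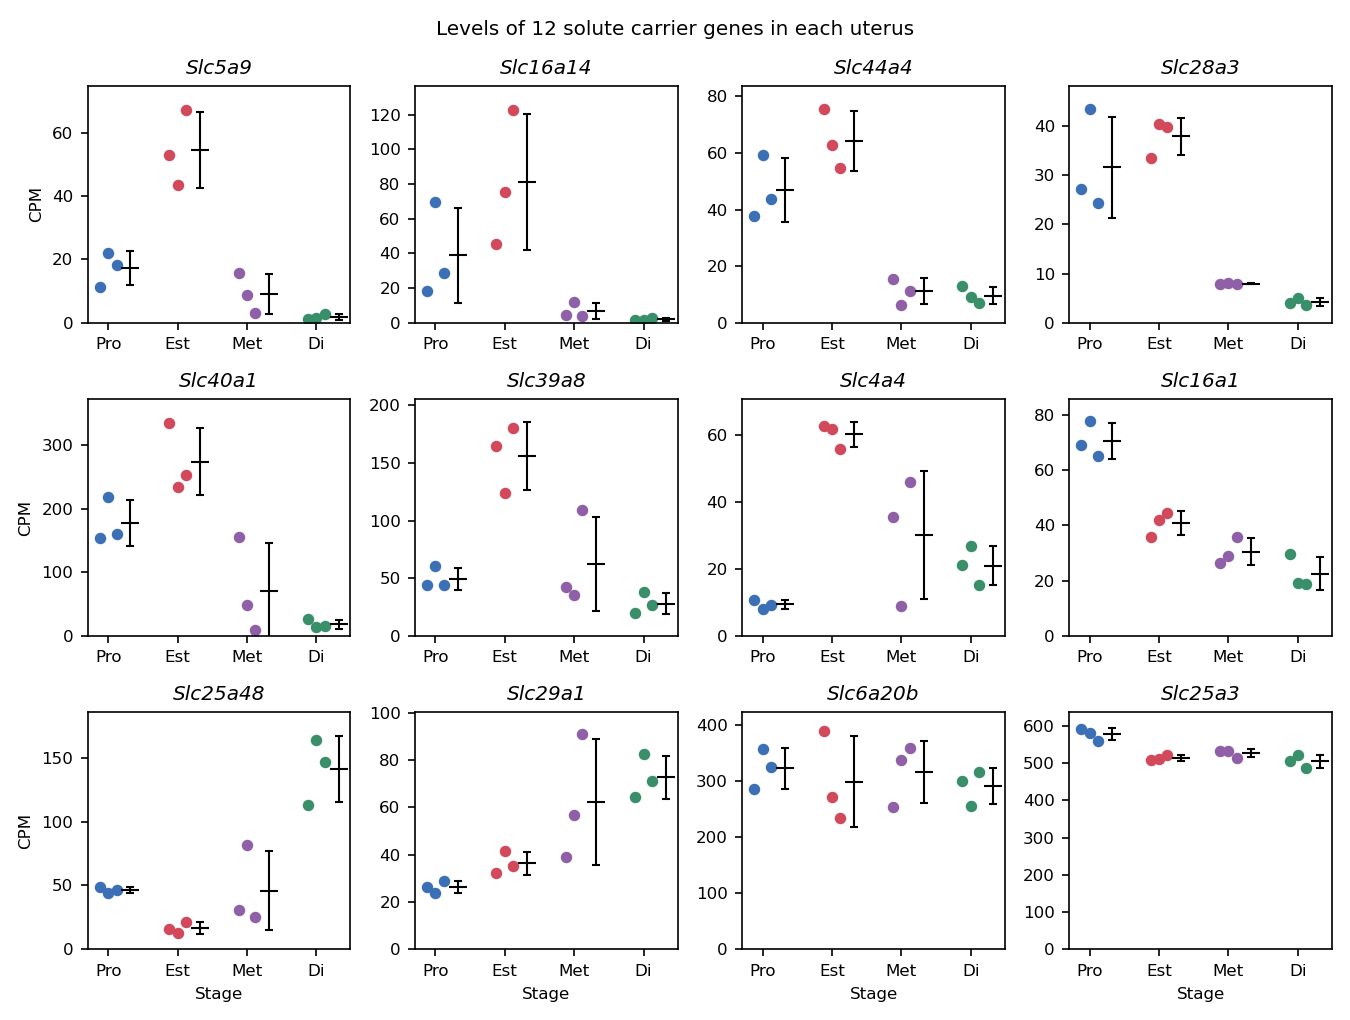
Level of named members in each uterus by stage, with coloured points for single uteri, and beside them a black dash for the stage mean and bars for 1 SD (n = 3), on linear CPM axes starting at 0 that differ between panels. Slc28a3, Slc44a4 and Slc16a14 are high in proestrus and estrus, Slc16a1 is highest in proestrus, Slc25a48 is highest in diestrus, and the Slc40a1 metestrus points are spread from 9.54 to 155.1 CPM.

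For 4 of the members described, the RefSeq promoter window (GRCm38.p6, 250 bases before to 50 after the transcription start, 5′ to 3′ on the gene's strand) is shown, since they are high in different stages and the letters around their starts differ. Capitals mark a CCAAT box (CCAAT or ATTGG), a GC box (GGGCGG or CCGCCC) or an estrogen-response half-site (AGGTCA or TGACCT). Slc44a4, at chr17:34914216-34914515 (+), is high in proestrus and estrus; Slc16a14, at chr1:84935034-84935333 (-), likewise; Slc39a8, at chr3:135825029-135825328 (+), peaks in estrus; and Slc25a48, at chr13:56438105-56438404 (+), in diestrus.
Slc44a4: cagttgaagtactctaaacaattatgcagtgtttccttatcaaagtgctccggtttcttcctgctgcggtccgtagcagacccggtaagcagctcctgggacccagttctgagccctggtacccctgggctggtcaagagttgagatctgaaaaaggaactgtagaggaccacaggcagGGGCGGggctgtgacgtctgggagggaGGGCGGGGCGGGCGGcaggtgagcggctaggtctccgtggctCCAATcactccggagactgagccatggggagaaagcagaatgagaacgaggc
Slc16a14: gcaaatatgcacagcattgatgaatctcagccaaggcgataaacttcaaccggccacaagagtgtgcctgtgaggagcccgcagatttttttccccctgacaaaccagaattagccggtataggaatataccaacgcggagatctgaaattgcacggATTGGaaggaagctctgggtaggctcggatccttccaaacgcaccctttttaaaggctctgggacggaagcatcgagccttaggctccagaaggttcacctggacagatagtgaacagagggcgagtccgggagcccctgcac
Slc39a8: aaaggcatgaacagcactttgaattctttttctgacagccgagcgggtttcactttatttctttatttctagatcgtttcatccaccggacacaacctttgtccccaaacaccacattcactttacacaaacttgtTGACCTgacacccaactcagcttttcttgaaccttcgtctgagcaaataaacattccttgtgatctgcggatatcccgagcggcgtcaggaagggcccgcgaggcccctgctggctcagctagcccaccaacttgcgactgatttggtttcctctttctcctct
Slc25a48: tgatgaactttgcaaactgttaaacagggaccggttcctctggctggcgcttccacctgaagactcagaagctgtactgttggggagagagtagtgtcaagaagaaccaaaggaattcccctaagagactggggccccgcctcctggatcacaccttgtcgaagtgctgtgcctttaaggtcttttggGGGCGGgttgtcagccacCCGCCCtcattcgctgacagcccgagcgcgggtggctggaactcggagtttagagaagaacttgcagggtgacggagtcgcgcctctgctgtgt
Slc44a4 holds 1 CCAAT box and 4 GC boxes, some of which overlap, Slc16a14 holds 1 CCAAT box, Slc39a8 holds 1 half-site, and Slc25a48 holds 2 GC boxes.

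Such a window was found for 137 of the 185 members, and 6 motifs were searched on both strands. The half-site AGGTCA was in 17 of the 137 (12.4%), against 12.3% of the windows of all genes tested. Among called members highest in estrus with a window, 4 of 23 held it (17.4%). The full estrogen response element GGTCANNNTGACC was in 0 of 137 members and in 0.0084% of the windows of all genes tested, and GNACANNNTGTNC, the progesterone and glucocorticoid receptor element, was in 0 of 137 against 0.319% of the same windows. CCAAT stood in 37.2% of members against 37.2%, TATAAA in 5.84% against 7.32%, and GGGCGG in 70.8% against 62.2%. A match here is only a run of letters and not a bound site.

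Among the sugar carriers, besides Slc5a9, the called members with the smallest p-values were Slc37a1 and Slc5a1. Slc37a1, which exchanges glucose 6-phosphate for phosphate in the endoplasmic reticulum, measured 5.49, 5.39 and 3.55 CPM in proestrus, 14.9, 12.8 and 16.2 in estrus, 1.78, 1.26 and 2.98 in metestrus, and 1.496, 3.64 and 2.72 in diestrus. Estrus stood clear of every other sample, and the log2 fold change of metestrus against estrus was -2.87 ± 0.43 (adjusted p = 0.0017, edgeR). Slc5a1, the sodium-glucose cotransporter SGLT1, was 24.7, 26.3 and 19.2 CPM in estrus, and 3.42, 13.5 and 1.52 CPM in proestrus, where replicate 2 stood above the others. In metestrus it was 3.63, 0 and 1.79 CPM and in diestrus 0.997, 0.494 and 1.70 CPM, so that all diestrus samples lay at the floor of 3 counts or under it. Estrus was 13.8-fold higher than a floor of 3 counts per diestrus library (adjusted p = 0.00141 for diestrus against estrus, edgeR). Diestrus libraries held up to 3 counts, so 13.8 is not a strict lower bound. The F test over the 4 stages gave an adjusted p of 0.00201. Slc37a1 passed the expression limit through estrus alone and Slc5a1 through proestrus and estrus, so their calls are no support for a difference.

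Slc5a3, the sodium-coupled carrier of the osmolyte myo-inositol, averaged 42.0 ± 4.33 CPM (SD, n = 3) in proestrus, 34.7 ± 9.52 in estrus, 24.8 ± 9.79 in metestrus and 12.1 ± 3.05 in diestrus. It was called by the F test over the 4 stages (adjusted p = 0.00354, edgeR). Its exons overlap those of Mrps6 on the same strand, so the split of counts between these 2 genes is uncertain. Slc5a3 and the genes described next, Slc2a3 and Slc5a11, fall outside the naming rule and were chosen after their values were seen. Slc2a3, the high-affinity glucose transporter GLUT3, was 1.62 to 13.4 CPM in all samples outside diestrus and 17.7, 99.2 and 18.8 CPM in diestrus. Its call rested on diestrus replicate 4: the adjusted p rose from 0.00746 to 0.109 without it.

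Slc5a11, a sodium-coupled myo-inositol carrier, was listed at 0 in all 3 proestrus uteri and reached 34.6 CPM in metestrus replicate 7 and 23.2 CPM in diestrus replicate 4. It was at least 7.03-fold higher in diestrus than in proestrus (at least 3.76-fold without diestrus replicate 4), but its F-test call (adjusted p = 0.0439, edgeR) was lost in 8 of the 12 refits. The same 2 uteri had the highest summed level of the gland markers (Foxa2, Spink1, Prss28, Prss29 and Cxcl15), 860.9 CPM in metestrus replicate 7 and 111.2 CPM in diestrus replicate 4, against 0.539 to 54.8 in the others. In metestrus replicate 7 that sum was mostly Spink1 (478.7 CPM), Prss29 (296.9) and Prss28 (77.5), while Foxa2 (4.77) and Cxcl15 (2.98) were lower there than in the other metestrus uteri. The part of gland content in the Slc5a11 result was not tested. Slc45a3 was called as well, and the 8 sugar carriers that were not called spanned 1.25-fold to 3.83-fold between stages. The most abundant, Slc37a3, was among them, at 30.1 to 37.7 CPM in all 4 stage means (adjusted p = 0.659).

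In the organic acid class the proestrus peak of Slc16a1 stood beside 2 other patterns. Slc5a8, a sodium-coupled carrier of lactate, butyrate and other monocarboxylates, was 1.14, 0 and 0.508 CPM in proestrus, 19.3, 20.6 and 15.6 in estrus, 0, 1.89 and 5.96 in metestrus, and 1.496, 0.494 and 0 in diestrus. Metestrus replicate 7 was also above the floor, at 5.96 CPM. Estrus was at least 10.8-fold higher than proestrus and 10.9-fold higher than a floor of 3 counts per diestrus library (F test adjusted p = 0.00124, edgeR). Diestrus libraries held up to 3 counts, so 10.9 is not a strict lower bound. Slc5a8 passed the expression limit through estrus alone, so its call is no support for a difference. Slc16a6, a ketone body and taurine carrier, averaged 47.5 ± 6.43 CPM in proestrus and 12.1 to 19.5 CPM in the later stages. Its adjusted p of 0.0124 rose to 0.0598 without proestrus replicate 2, and its exons overlap Amz2 and Arsg on the opposite strand.

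Slc16a9, chosen like Slc16a6 after its values were seen, was lowest in proestrus (3.70 ± 1.90 CPM, against 9.77 to 12.2 in the later stages), and was called in 5 of the 12 refits (adjusted p = 0.032). Of the 2 glycoproteins that escort these carriers to the surface, basigin (Bsg) was highest in estrus, at 375 CPM against 244 to 255 in the other stages (adjusted p = 0.0048, edgeR), while embigin (Emb) was not called (adjusted p = 0.363).

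Among the nucleoside, vitamin, choline and heme carriers, Slc29a1 moved opposite to Slc28a3. Slc29a1 encodes ENT1, which lets nucleosides cross the membrane down their gradient and is the main route of adenosine uptake. It was 26.2, 23.7 and 28.9 CPM in proestrus, 32.2, 41.8 and 35.3 in estrus, 38.9, 56.8 and 91.2 in metestrus, and 64.3, 82.6 and 71.3 in diestrus. Proestrus was below estrus and estrus below diestrus with no overlap, and metestrus overlapped with both estrus and diestrus. The log2 fold change of proestrus against diestrus was -1.46 ± 0.25 (adjusted p = 0.00305, edgeR), where that of Slc28a3 was 2.92 ± 0.28.

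Slc29a3, the lysosomal nucleoside exporter ENT3, was lower in proestrus (11.3 ± 0.870 CPM, SD, n = 3) than in estrus (28.4 ± 2.30), metestrus (25.1 ± 8.42) and diestrus (23.4 ± 3.58), with an F-test adjusted p of 0.00728. Slc48a1, a lysosomal heme carrier, was also lowest in proestrus, at 49.3 ± 1.66 CPM against 58.9 to 77.1 (adjusted p = 0.0443), but its call was lost in 11 of the 12 refits and its exons overlap Hdac7 on the opposite strand. Both were chosen after their values were seen. Of 5 macrophage markers (Adgre1, Cd68, Csf1r, C1qa and Lyz2), 4 were called, and their summed level was lowest in proestrus too, at 204 to 253 CPM, against 536 to 590 in estrus, 290 to 555.5 in metestrus and 313 to 464 in diestrus. Cd68 went another way, lowest in diestrus (18.8 CPM, against 21.3 in proestrus), and C1qa was the marker not called (F test adjusted p = 0.0868, edgeR). The part of macrophage content in the Slc29a3 and Slc48a1 results was not tested. The most abundant of the class, the choline carrier Slc44a1, was not called (61.7 to 82.6 CPM, adjusted p = 0.196), while the related Slc44a4 was.

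Small ion carriers were called in 5 of 23 members, 4 of them highest in estrus. Slc4a4, the electrogenic sodium bicarbonate cotransporter NBCe1, was 10.8, 8.09 and 9.35 CPM in proestrus, 62.7, 61.8 and 55.9 in estrus, 35.4, 8.78 and 45.9 in metestrus, and 21.02, 26.7 and 15.2 in diestrus. The 3 proestrus samples were far below the 3 estrus samples, and in metestrus replicate 6 was as low as proestrus. Estrus exceeded proestrus by 2.67 ± 0.42 log2 units (adjusted p = 0.00131, edgeR).

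Slc34a2, the epithelial sodium phosphate cotransporter NaPi-IIb, measured 7.42, 4.85 and 5.58 CPM in proestrus, 20.4, 20.6 and 26.1 in estrus, 8.82, 0.631 and 0.596 in metestrus, and 0.499, 0 and 0 in diestrus. It was at least 13.2-fold higher in estrus than in diestrus (adjusted p = 0.000373 for that pair, edgeR). Proestrus was at least 3.50-fold higher than diestrus (adjusted p = 0.0188), a call kept in 9 of the 12 refits. The F test over the 4 stages gave an adjusted p of 0.00111. Slc34a2 averaged 3.35 CPM in metestrus and lay under the floor in diestrus, so it passed the expression limit through proestrus and estrus. Its calls are therefore no support for a difference. Slc26a9, a chloride carrier of epithelia, stood at 14.2, 23.5 and 11.04 CPM in estrus and at or under 6.74 CPM in every other sample. It was at least 9.56-fold higher in estrus than in diestrus. The F test over the 4 stages gave an adjusted p of 0.00555 (edgeR), but Slc26a9 passed the expression limit through estrus alone. In metestrus, both Slc34a2 and Slc26a9 were detected above the floor in replicate 5 only.

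The other 2 called small ion carriers were chosen after their values were seen. Slc12a4, the potassium chloride cotransporter KCC1, was lowest in estrus (2.73 ± 0.613 CPM) and highest in diestrus (11.9 ± 3.70), with an adjusted p of 0.00766. Slc8b1, the mitochondrial sodium calcium exchanger, was highest in estrus (17.2 ± 1.95 CPM) and lowest in diestrus (5.13 ± 0.873, adjusted p = 0.0102). The most abundant of the class was Slc24a3, a potassium-dependent sodium calcium exchanger, whose stage means were 57.04, 149.8, 210.8 and 141.2 CPM from proestrus to diestrus. It was not called (adjusted p = 0.128), and metestrus replicate 5 held 474.6 CPM beside a metestrus SD of 228 CPM. It was called without metestrus replicate 5 (adjusted p = 0.0097), without replicate 6 (0.0362), without replicate 7 (0.045) and with no filter on low counts (0.00385).

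Of the metal carriers, Slc40a1 and Slc39a8 changed most. Slc40a1 encodes ferroportin, the exporter of iron from cells. Its values were 153, 218 and 160 CPM in proestrus, 334, 235 and 253 in estrus, 155, 48.6 and 9.54 in metestrus, and 25.9, 13.4 and 15.3 in diestrus. Metestrus spanned the distance between the others, with replicate 5 at the proestrus level and replicate 7 below all diestrus samples. The log2 fold change was -3.90 ± 0.64 in diestrus against estrus (adjusted p = 0.000885, edgeR) and 3.28 ± 0.63 in proestrus against diestrus (adjusted p = 0.00601).

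Slc39a8, the zinc and manganese importer ZIP8, was 43.9, 60.4 and 44.2 CPM in proestrus, 164.5, 123.5 and 180.1 in estrus, 42.5, 35.2 and 109.1 in metestrus, and 19.4, 38.1 and 26.6 in diestrus. Every estrus sample was above every other sample, and metestrus replicate 7 was the nearest to them. It rose from proestrus to estrus by 1.66 ± 0.35 log2 units (adjusted p = 0.00626, edgeR) and was lower in diestrus than in estrus (log2 fold change -2.47 ± 0.37, adjusted p = 0.000458). Slc39a13, the zinc carrier ZIP13 of the secretory pathway, was lowest in estrus (10.3 ± 1.09 CPM, against 15.1 to 22.3), with an adjusted p of 0.0312 that was lost in 5 of the 12 refits, and its exons overlap Psmc3 on the opposite strand.

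Slc31a1, the copper importer CTR1, chosen after its values were seen, was highest in estrus (56.95 ± 4.75 CPM, against 34.7 to 43.1). Its adjusted p of 0.0436 was kept in 3 of the 12 refits. The most abundant member of all, Slc39a1, the zinc importer ZIP1, had stage means of 2595, 2883, 3054 and 2348 CPM from proestrus to diestrus and was not called (adjusted p = 0.266). It shares 27.6% of its transcript with the pseudogene Slc39a1-ps, so counts could be split between them.

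Amino acid and peptide carriers made up the largest class, with 7 of 34 members called. Slc43a2, the facilitative carrier LAT4 of large neutral amino acids, was 23.04, 12.1 and 17.8 CPM in proestrus, 36.5, 52.1 and 51.8 in estrus, 30.6, 15.8 and 33.4 in metestrus, and 15.1, 14.5 and 12.5 in diestrus. Estrus did not overlap with any other stage. It rose from proestrus to estrus by 1.43 ± 0.28 log2 units (adjusted p = 0.00456, edgeR) and was lower in diestrus than in estrus (log2 fold change -1.75 ± 0.29, adjusted p = 0.000872).

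Slc38a2, the sodium-coupled neutral amino acid carrier SNAT2, which cells induce when amino acids are scarce, formed 2 plateaus. It was 78.7 ± 0.941 CPM (SD, n = 3) in proestrus and 83.1 ± 13.1 in estrus, and 54.6 ± 4.35 in metestrus and 54.4 ± 2.46 in diestrus. No sample of the first 2 stages overlapped with one of the last 2 (F test adjusted p = 0.00593, edgeR), but the adjusted p was 0.0556 once counts were scaled from TPM. Slc1a3, the glutamate and aspartate carrier GLAST, was lowest in estrus (2.34 ± 1.02 CPM) and higher in metestrus (11.8 ± 5.47) and diestrus (9.50 ± 1.08). Its adjusted p of 0.0137 became 0.0511 without estrus replicate 4.

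Of the remaining called members of the class, 3 chosen after their values were seen sat close to the threshold. Slc7a1 (cationic amino acids, adjusted p = 0.0397, edgeR), Slc7a7 (the same substrates, exported with its heavy chain, 0.0446) and Slc15a2 (peptides, 0.0451) were called in 5, 1 and 3 of the 12 refits. The exons of Slc7a7 overlap Oxa1l on the opposite strand. The most abundant, Slc6a20b, a proline family carrier, was 323 ± 36.6, 299 ± 81.4, 317 ± 55.3 and 291 ± 31.7 CPM from proestrus to diestrus (adjusted p = 0.890), and 10.9% of its sequence is shared with Slc6a20a. Slc3a2, the heavy chain that brings the Slc7 light chains to the surface, had stage means of 84.2 to 91.1 CPM (adjusted p = 0.881), and the light chain Slc7a5 was not called either (adjusted p = 0.625). The 27 members of the class that were not called spanned 1.08-fold to 2.41-fold between stage means.

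Mitochondrial carriers had 4 of 31 members called (12.9%), the lowest share after the nucleotide sugar class (10%). Besides Slc25a48, these were Slc25a26, Slc25a35 and Slc25a45. Slc25a26, which imports S-adenosylmethionine for methylation inside mitochondria, averaged 29.7 ± 1.05 CPM in proestrus, 24.4 ± 4.82 in estrus, 16.4 ± 4.41 in metestrus and 12.6 ± 1.33 in diestrus (F test adjusted p = 0.00577, edgeR). Its exons overlap Lrig1 on the opposite strand. Slc25a35, whose substrate is not established, was lowest in estrus, at 8.42 ± 0.378 CPM against 14.7 to 21.9 in the other stages (adjusted p = 0.00747). It overlaps Rangrf on the opposite strand, and its adjusted p was 0.0639 once counts were scaled from TPM. Slc25a45 was highest in estrus (21.4 ± 1.80 CPM, against 7.36 to 10.8, adjusted p = 0.0137) and was chosen after its values were seen.

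The abundant ADP/ATP and phosphate carriers moved less. Slc25a4, the ADP/ATP exchanger of heart and muscle, was 586 ± 33.2, 504 ± 30.6, 582 ± 8.35 and 676 ± 5.35 CPM from proestrus to diestrus and missed the F test (adjusted p = 0.0672, edgeR; 0.00224 with DESeq2 and 0.0451 with limma-voom). Diestrus alone against estrus was called, by 0.43 ± 0.11 log2 units (adjusted p = 0.0154), and that call was lost without estrus replicate 5 (adjusted p = 0.0552). The summed skeletal muscle markers Acta1, Ckm, Myh4 and Tnnt3 were also highest in diestrus, at 128 to 196 CPM, against 58.2 to 86.3 in proestrus, 58.3 to 121.9 in estrus and 34 to 104.2 in metestrus, with Myh4 at 0. Most of the sum was Acta1, and Ckm went the other way, highest in estrus and called (adjusted p = 0.0283, edgeR). Their part in the Slc25a4 result was not tested. Slc25a3, the phosphate carrier, had stage means of 505 to 578 CPM (adjusted p = 0.465), and Slc25a5, the other main ADP/ATP exchanger, 166 to 274 CPM (adjusted p = 0.0875), with 49.4% of its sequence shared with Gm5560. Summed over the 31 mitochondrial members, the level was 2253 to 2318 CPM in proestrus, 1967 to 2003 in estrus, 2028 to 2217 in metestrus and 2277 to 2381 in diestrus, so estrus was lowest without overlap.

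The nucleotide sugar and acetyl-CoA carriers, which feed glycosylation in the Golgi, had 2 of 20 called. Slc35g1, placed here by its family and not by an established sugar substrate, was 53.2, 50.7 and 38.3 CPM in proestrus, 44.9, 41.9 and 67.0 in estrus, 30.2, 27.1 and 14.3 in metestrus, and 16.5, 12.9 and 10.2 in diestrus. Proestrus and estrus overlapped and lay above all the later samples. The log2 fold change of diestrus against estrus was -1.95 ± 0.29 (adjusted p = 0.000446, edgeR). Slc35a3, the UDP-N-acetylglucosamine carrier, fell from 45.6 ± 3.56 CPM in proestrus to 25.3 ± 5.61 in diestrus, but its F-test adjusted p of 0.0412 was lost in 7 of the 12 refits, with library totals in place of scaling factors (0.0696) and with counts scaled from TPM (0.195). Slc35f5, the most abundant, was not called (adjusted p = 0.0763), and the 18 that were not called spanned 1.11-fold to 2.64-fold.

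Of the carriers of organic cations, anions and amines, Slc17a5 was the clearest. It encodes sialin, which exports sialic acid from lysosomes. Its level was 27.6, 26.95 and 19.8 CPM in proestrus, 54.5, 64.5 and 70.1 in estrus, 46.2, 23.4 and 23.9 in metestrus, and 24.9, 15.8 and 19.2 in diestrus. Estrus was above all other samples (diestrus against estrus -1.66 ± 0.26 on the log2 scale, adjusted p = 0.000741, edgeR), and 9.14% of the transcript sequence is shared with Gm48111. Slc22a23, an orphan of the organic ion family, was also highest in estrus (15.3 ± 0.931 CPM, against 5.73 to 9.01), with an adjusted p of 0.0186 that became 0.0802 without estrus replicate 4 and 0.0755 without estrus replicate 5. Slc14a1, the urea carrier UT-B of red cells and endothelium, had an adjusted p of 0.0477 that was kept in 2 of the 12 refits. It was lowest in diestrus (2.77 ± 1.25 CPM) and highest in metestrus (15.1 ± 9.82). The summed red blood cell markers (Hba-a1, Hba-a2, Hbb-bs, Hbb-bt and Alas2; 3 tested and 0 called by edgeR, lowest unadjusted p = 0.0955) were 163 to 1433 CPM in metestrus and 235 to 354.5 in diestrus. They were highest in metestrus replicate 6 and proestrus replicate 3, the 2 uteri with the most Slc14a1 (24.3 and 18.5 CPM), and their part in that result was not tested.

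The fatty acid class had 2 of 6 called in each of the 12 refits. Slc27a2, an acyl-CoA synthetase for very long chain fatty acids that also promotes their uptake, was 5.70, 6.47 and 1.52 CPM in proestrus, 14.2, 17.2 and 23.4 in estrus, 4.15, 1.26 and 1.19 in metestrus, and 1.496, 2.47 and 1.70 in diestrus. Estrus stood above all other samples, and several of the rest were near the floor (diestrus against estrus -3.23 ± 0.53 on the log2 scale, adjusted p = 0.000886, edgeR). Slc27a2 passed the expression limit through estrus alone, so its calls, in the refits as well, are no support for a difference. Slc27a1, the long chain fatty acid transport protein of muscle and fat, was lower in proestrus (9.28 ± 1.98 CPM) than in estrus (23.9 ± 2.11), metestrus (22.2 ± 6.36) and diestrus (19.5 ± 2.38), with an F-test adjusted p of 0.00726. The most abundant, Slc27a4, was 25.5 to 30.7 CPM in all stages (adjusted p = 0.803).

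The 2 scaffold proteins that carry a solute carrier symbol moved in opposite directions. Slc9a3r1 (NHERF1) and Slc9a3r2 (NHERF2) hold carriers and receptors beneath the apical membrane. Slc9a3r1 was 46.4 ± 2.31 CPM in proestrus, 53.2 ± 4.68 in estrus, 30.97 ± 3.73 in metestrus and 31.2 ± 4.05 in diestrus. Slc9a3r2 was 84.1 ± 5.21, 69.1 ± 9.41, 102 ± 8.24 and 134 ± 18.1 CPM in the same order. In diestrus against estrus the log2 fold change was -0.77 ± 0.15 for Slc9a3r1 (adjusted p = 0.00289, edgeR) and 0.96 ± 0.14 for Slc9a3r2 (adjusted p = 0.000505).

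Pair by pair, estrus against proestrus and diestrus against estrus held the most calls. In estrus against proestrus 33 members were called, against 17.1% of all genes tested: 23 were higher in estrus (9.67% of all genes) and 10 lower (7.46%). In metestrus against estrus 20 were called, against 7.56% of all genes: 4 were higher in metestrus (2.83%) and 16 lower (4.73%). In diestrus against estrus 48 were called, against 22.8% of all genes: 17 were higher in diestrus (9.72%) and 31 lower (13%). In proestrus against diestrus 21 were called, against 8.53% of all genes: 14 were higher in proestrus (4.62%) and 7 lower (3.91%). These comparisons share samples, so their counts are not independent of each other.

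In diestrus against metestrus edgeR called 0 members, where 0.224% of all genes were called (0.133% higher and 0.0913% lower). The lowest adjusted p among members was 0.0617, and 21 members had an unadjusted p under 0.05. DESeq2 called 4 members and limma-voom 1, where they called 148 and 14 of all genes. Metestrus uteri were uneven for some members: Slc24a3 was far higher in replicate 5 than in the other metestrus uteri, and Slc5a11 in replicate 7.

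**Figure D4:**
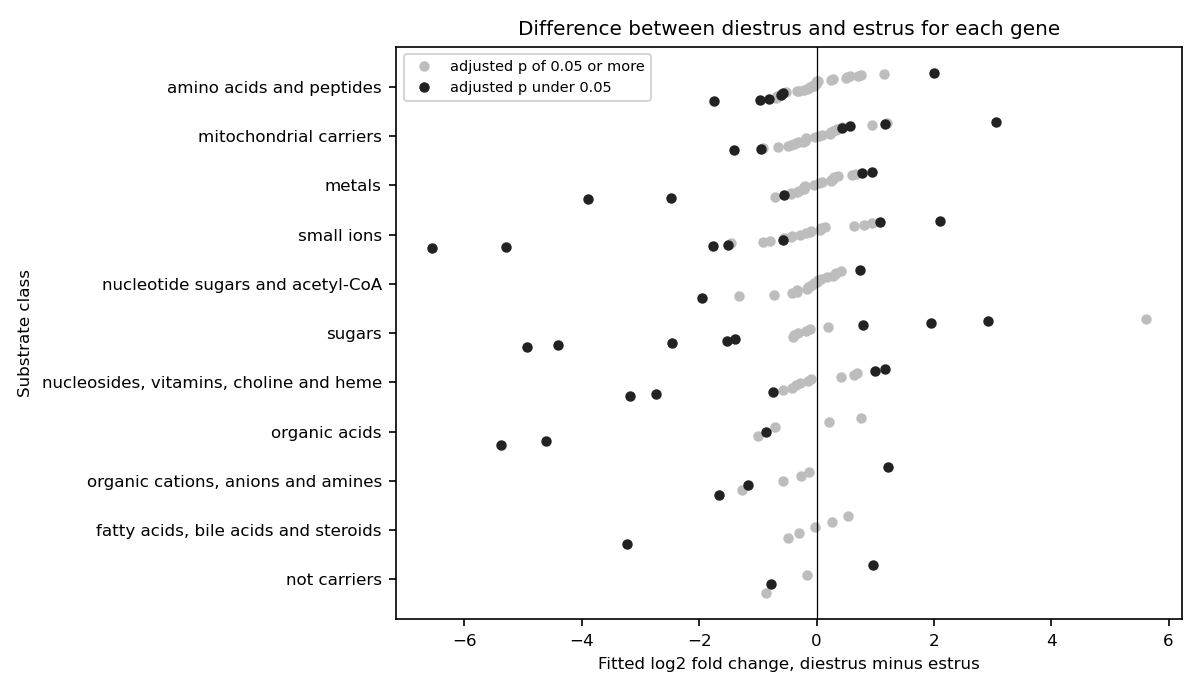
Fitted log2 fold change of diestrus against estrus (horizontal axis) for each member, 1 point per gene, in rows by substrate class (vertical axis), with black points for genes called at an adjusted p under 0.05 and grey points for the rest. More called members lie below 0 (31) than above it (17), and the points furthest below 0 include genes with diestrus counts near the floor, where the fitted size depends on the prior count.

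Proteins that work with the carriers were read from a separate list of 46 pumps, partners, kinases and channels, chosen by function. The list was made with earlier results of these data known. Its share of calls is therefore a description and no support for a difference from other genes. Of these, 37 were tested and 15 were called (40.5%, against 23.2% of all genes tested), 10 of them highest in estrus and 10 lowest in diestrus. Atp1b1, the beta subunit of the sodium pump that powers sodium-coupled carriers, was instead highest in diestrus, at 161 CPM against 46.4 in proestrus, 78.4 in estrus and 67.9 in metestrus (F test adjusted p = 0.00113, edgeR). Its regulator Fxyd3 was highest in estrus, with stage means of 302, 485, 220 and 102 CPM from proestrus to diestrus.

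The chloride channels parted. Cftr, the cyclic AMP-gated channel, fell from 72.8 CPM in proestrus through 43.2 and 20.1 to 10.1 in diestrus (adjusted p = 0.0234), while Ano1, the calcium-gated channel, rose from 74.1 through 120 and 245 to 310 CPM (adjusted p = 8e-05). Scnn1b, a subunit of the epithelial sodium channel, was 0.708 CPM in proestrus and 25.8 CPM in estrus. The water channel Aqp5 was 21.2, 34.2, 11.3 and 6.89 CPM in the 4 stages, and both were called.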

How the data were processed

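The authors deposited 1 table per sample with estimated counts and TPM per transcript, per the file headers; the deposited TPM values were used only for 1 alternative. Per the submitters' processing notes the tools were FastQC, kallisto and DESeq2; their roles, the transcript set and the use of strand were not given in the sources used here. Transcripts were matched without version to GENCODE M21 (GRCm38), 116640 of 119414, and 0.619% to 0.774% of counts did not match and were left out. Estimated counts were summed per gene, rounded and tested with edgeR 4.0.16 in R 4.3.3: TMM factors, filterByExpr by stage (12052 genes), 1 coefficient per stage over all 12 samples, the quasi-likelihood F test and 5 two-sided contrasts, Benjamini-Hochberg adjusted over all genes. Printed CPM are scaled by TMM, while the membership limit used unscaled CPM. The procedure was tested on simulated data.

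Alternatives were DESeq2 1.42.0, limma-voom 3.58.1, RLE factors, library totals, no filter, a mean of at least 50 counts, counts scaled from TPM, leaving out each library and a replicate block. Under TMM, RLE and library totals the median log2 fold change of all genes lay between -0.0401 and 0.0679 in every contrast. Named genes were, per class, the most abundant member and up to 3 called members with the smallest F-test p, the 6 smallest p of all members, and the 2 largest called changes per contrast. Slc3a2 was given as a partner of the Slc7 carriers. Slc25a3, Slc25a5, Slc7a5 and Slc45a3 also fall outside this rule, and other names are marked in the text. Some genes that meet this rule or were called are not reported here or drawn in the heat map. The members, classes, markers and accessory list were chosen with earlier results of these data known. The cell type lists were, for smooth muscle, Acta2, Myh11, Des, Cnn1, Actg2 and Tagln; for stroma, Col1a1, Col1a2, Col3a1, Dcn, Pdgfra and Lum; and for endothelium, Pecam1, Cdh5, Kdr, Tie1 and Emcn. The labels give 3 uteri per stage with no animal identifiers or batches, so p-values measure only the spread between these samples. No molecular identifiers were described, and floors cover counting error only.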

Additional observations from a re-analysis of the deposited data

How the results depend on the processing

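The F-test count of 46 members became 23 with a mean of at least 50 counts, where 68 members were tested and 20 of the calls were shared, and 22 with counts scaled from TPM, where 121 were tested and 21 were shared. Over all genes the F-test count of 2793 became 1844 and 1674. With those same 2 settings, estrus against proestrus gave 13 and 14 calls in place of 33, metestrus against estrus 10 and 6 in place of 20, and diestrus against estrus 26 and 25 in place of 48. Over all genes these were 1457 and 1269 in place of 2064, 691 and 410 in place of 911, and 1811 and 1801 in place of 2744. A mean of at least 50 counts gave 12 in place of 21 for proestrus against diestrus (670 in place of 1028 over all genes). Metestrus against estrus gave 12 calls with a member limit of 10 CPM and 7 when only those 2 stages were fitted (299 over all genes). Diestrus against metestrus gave 0 calls, 1 with library totals, 7 with no filter, 4 with DESeq2 and 1 with limma-voom. Over all genes the count was 27, and 32, 256, 148 and 14 with those settings in the same order. Leaving out 1 library gave 34 to 54 calls for the F test, 14 to 40 for estrus against proestrus (20 without proestrus replicate 1, 21 without 2, 14 without 3; 16, 21 and 16 without estrus replicates 3, 4 and 5), 9 to 30 for metestrus against estrus (13, 9 and 9 without estrus replicates 3, 4 and 5; 10 without metestrus replicate 6), 0 to 4 for diestrus against metestrus (2 without metestrus replicate 6, 4 without 7), 13 to 25 for proestrus against diestrus (13 without proestrus replicate 2) and 34 to 56 for diestrus against estrus. Over all genes the same refits gave 1910 to 3428 F-test calls. By pair they gave 1100 to 2414 for estrus against proestrus and 341 to 1364 for metestrus against estrus. For diestrus against metestrus they gave 5 to 173, for proestrus against diestrus 519 to 1281, and for diestrus against estrus 1910 to 3146. A replicate block for diestrus against estrus gave 51 calls. The deviations of same-numbered samples correlated at -0.043, 0.013 and -0.017, which is no sign of pairing, though so few pairs cannot exclude it. No other pair of stages shared 2 numbers. Estrus was the stage with the most called peaks in each of these scalings and refits, with 21 to 33 of the called members over the refits and 13 of 22 with counts scaled from TPM. It was also the commonest peak over all genes, with 1308 of the 2793 called in the main fit, the only fit in which those peaks were counted. The member counts include genes that passed the expression limit through estrus alone. Across the F tests and called contrasts of named genes, 2078 outcomes kept their side of the threshold (and direction, for contrasts), 152 lost the call, 12 gained it and 0 reversed. Contrasts not called in the main fit, and genes filtered out under a setting, were not counted. The settings reuse the same libraries, so a reversal of a called contrast could hardly arise. Members near the floor of 3 counts, such as Slc34a2 and Slc5a8, allow only lower bounds in their low stages. Where such a stage held counts up to the floor, as for Slc5a1 and Slc5a8 in diestrus, the fold is against the floor and no strict bound.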
